A study of Mus musculus with 51 samples.

Results

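Interferon-stimulated genes are the genes that cells switch on when they sense interferons, and 39 of them were followed here across mouse neutrophils. They were given as a list of symbols and were found among 50600 gene identifiers in the deposited count tables. RNA and open chromatin had been measured in Ly6G+ neutrophils sorted from air pouch exudate, air pouch membrane, blood and bone marrow, 4 h after 100 µg zymosan was injected into an air pouch made 6 days earlier. Zymosan is a yeast cell wall preparation that neutrophils recognise as fungal material. The RNA libraries came from CX3CR1GFP Ly6GCre-tdTomato mice, in which a Cre allele at the neutrophil gene Ly6g is joined to the red reporter tdTomato and green protein marks CX3CR1, and all tissues shared this genotype and the zymosan challenge. There were 5 exudate, 2 membrane, 5 blood and 3 bone marrow RNA libraries, made from small bulk samples by Smart-seq2, and 2 ATAC-seq libraries per tissue from 75000 sorted cells each. No tissue from an unchallenged mouse was part of the comparisons.

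A second system used ER-Hoxb8 neutrophils, which are progenitors held in a dividing state by an estrogen-dependent Hoxb8 protein and turned into neutrophil-like cells by removing estrogen and adding 20 ng/mL G-CSF. Cells were used on day 5 and incubated for 2 h with zymosan at 50 µg/ml or with the vehicle DMSO. CEBPB-/- and JUNB-/- lines were sequenced with a wild type (WT set 1), IRF5-/- and RELB-/- lines with another wild type (WT set 2), each with zymosan and with DMSO. RUNX1-/- and KLF6-/- lines were sequenced with DMSO only and were set against the DMSO libraries of WT set 2. Every ER-Hoxb8 group had 2 libraries, and no label says whether a line was 1 clone or whether the 2 libraries came from separate cultures, so p-values here measure the spread between these libraries, which may be technical.

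Type I interferons act through the receptor IFNAR and the kinases JAK1 and TYK2, which activate a complex that includes STAT2 and IRF9. This complex binds the interferon-stimulated response element (ISRE) in promoters, and a different element linked to interferon signalling is called GAS. The products block viral entry, sense foreign nucleic acid, degrade RNA, or tag proteins with the ubiquitin-like protein ISG15, and several feed back on the pathway itself. In neutrophils, a subset of circulating cells with high interferon-stimulated transcripts has been described in mice and humans.

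Promoter sequences are shown first because the listed genes were compared by their regulatory sites as well as by their RNA. RefSeq promoter windows (build GRCm38.p6, 250 bases before to 50 after the start) were matched for 30 of the 39 genes. The ISRE core, spelled GAAANNGAAA and searched on both strands, was present in 13 of the 30 (43.3%), against 1079 of 27025 genes with a window (3.99%). With a C after the core the shares were 36.7% of the 30 and 0.944% of all. The GAS core, spelled TTCNNNGAA and reading the same on both strands, was present in 7 of the 30 (23.3%) and in 9.55% of all genes; the GAS and ISRE letters can overlap. A match is a description of letters and not a measured binding site. The stretches below are from the 9 genes with an ISRE core before the start, written 5′ to 3′ on the gene's strand, with the core of either strand in capitals.
Isg15: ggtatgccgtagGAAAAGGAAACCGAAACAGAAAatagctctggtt
Ifit1: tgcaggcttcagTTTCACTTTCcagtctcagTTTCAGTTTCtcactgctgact
Ifit3: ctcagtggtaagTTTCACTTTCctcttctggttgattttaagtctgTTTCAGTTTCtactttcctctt
Ifit3b: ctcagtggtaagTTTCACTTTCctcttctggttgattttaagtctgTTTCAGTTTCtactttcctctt
Rsad2: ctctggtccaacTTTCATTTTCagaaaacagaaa
Oas1a: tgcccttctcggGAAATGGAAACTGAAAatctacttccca
Oas3: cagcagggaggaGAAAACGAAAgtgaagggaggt
Bst2: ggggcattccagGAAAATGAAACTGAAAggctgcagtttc
Trim30a: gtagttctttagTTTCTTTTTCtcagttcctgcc
The Isg15 stretch (chr4:156200863-156200908, minus strand) holds 3 overlapping cores, whose 22 bases run from 78 to 57 bases before the start. The Ifit1 stretch (chr19:34640773-34640825, plus strand) holds 2 cores. The Ifit3 (chr19:34583361-34583428, plus strand) and Ifit3b (chr19:34607757-34607824, plus strand) stretches were identical over all 68 bases, and counts of these near-identical genes are uncertain because read pairs that map to both were not counted. The same holds for the Ifitm, Oas1, Phf11 and Trim30 families. The other stretches lie at chr12:26456551-26456584 (Rsad2, minus strand), chr5:120907518-120907557 (Oas1a, minus strand), chr5:120777713-120777746 (Oas3, minus strand), chr8:71537575-71537614 (Bst2, minus strand) and chr7:104465208-104465241 (Trim30a, minus strand). No ISRE core was found in the windows of Ifit2, Isg20, Oasl1, Oasl2, Herc6, Cmpk2 or Xaf1, among others.

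RNA libraries held 9.24 to 19.11 M counted read pairs in the tissues and 19.37 to 34.26 M in ER-Hoxb8 cells. Summed neutrophil markers reached 85120 to 346800 CPM (read pairs scaled to library size, with TMM factors) in exudate, 106800 to 154200 in membrane, 205200 to 311100 in blood and 234500 to 292700 in bone marrow. Summed dendritic cell markers were 1.38 to 325 CPM in exudate, 121 to 251 in membrane, 1.43 to 55.0 in blood and 0.0572 to 69.9 in bone marrow, with Siglech at 0 in membrane and bone marrow; their part in the tissue results was not tested. All 5 T and NK cell markers were at 0 in membrane. Summed erythroid markers were 3.43 to 1309 CPM in bone marrow and at most 3.47 CPM in the other tissues. Bone marrow library 1 had Hba-a1 at 728.5 CPM and Hbb-bs at 556.6 CPM. The part of the erythroid markers in the tissue results was not tested. None of the 10 neutrophil markers was at 0 in any tissue or ER-Hoxb8 group. Knockout labels could not be checked by counts over whole genes, because the edited part of each gene is not given in the sources used here. The names of the lines are therefore those of the labels. With DMSO, Junb had 485.9 and 511.3 CPM in JUNB-/- against 850.9 and 948.5 in WT set 1, and Relb had 68.34 and 67.53 in RELB-/- against 168.1 and 171.7 in WT set 2. Irf5 had 81.03 and 81.76 CPM in IRF5-/- against 95.74 and 101.4 in WT set 2. Cebpb RNA was no lower in the libraries labelled CEBPB-/-, at 537.0 and 510.3 CPM against 478.6 and 536.2 in WT set 1. Runx1 and Klf6 RNA was higher in the libraries labelled as their knockouts, with Runx1 at 155.6 and 151.9 CPM in RUNX1-/- against 59.3 and 61.5 in WT set 2 and Klf6 at 851.4 and 852.3 CPM in KLF6-/- against 621.9 and 638.1 in WT set 2. With zymosan, Junb had 2084 and 2158 CPM in JUNB-/- against 2381 and 2230 in WT set 1, and Cebpb had 2880 and 2190 in CEBPB-/- against 1071 and 938.3 in WT set 1. Relb had 377.1 and 369.0 CPM with zymosan in RELB-/- against 469.1 and 447.5 in WT set 2, and Irf5 had 111.5 and 108.3 in IRF5-/- against 136.3 and 136.7 in WT set 2.

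In the air pouch, 4 of 5 exudate libraries and both membrane libraries held 31 to 33 of the 39 genes at 100 CPM or more. The fifth exudate library held 10. Blood was divided, with 28 and 33 genes at that level in its first and second libraries and 8, 8 and 5 in the other three. Bone marrow held 9, 5 and 6. Summed over the 39 genes, exudate libraries 1 to 5 had 63384, 51555, 56817, 50725 and 11525 CPM, membrane libraries had 74963 and 48065 CPM, blood libraries 1 to 5 had 28873, 47463, 6141, 7938 and 3179 CPM, and bone marrow libraries had 3118, 3887 and 3498 CPM. The lowest exudate library also had the fewest genes with at least 10 read pairs of its tissue, 3805 against 4355 to 5958 in the other exudate libraries. Membrane library 1 had nearly as few such genes, 3817, with 74963 CPM summed over the 39 genes. The part of this gene number in the result was not tested. The split was not particular to the 39 genes. Ccl4, from the inflammatory list compared below, had 7513, 11650, 36.75, 0 and 0.2411 CPM in blood. In exudate it had 25340, 25670, 67210, 58090 and 0.153. Zfp36, from that list, differed less in blood, at 500.6, 544.1, 338.2, 382.5 and 325.7 CPM. Camp, a neutrophil marker, had 16630 CPM in blood library 5 and 470.9 to 1916 in the other blood libraries. Their part was not tested. In bulk RNA, fewer cells with interferon-stimulated transcripts and less RNA per cell cannot be told apart.

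**Figure D1:**
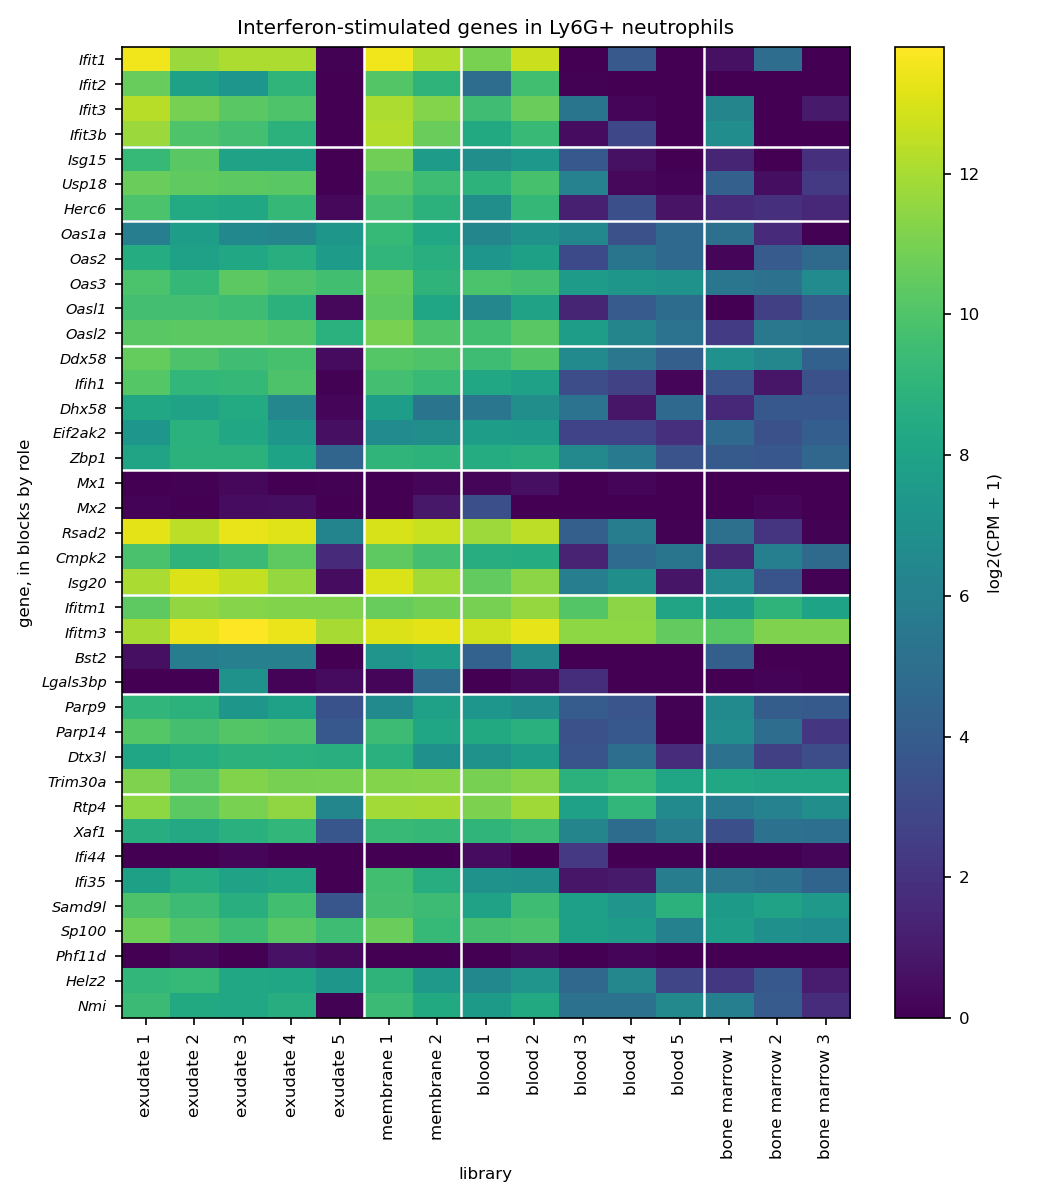
Level of each of the 39 genes, as log2(CPM + 1) in colour, in each Ly6G+ neutrophil library (columns, by tissue) with genes in blocks by role (rows). Exudate libraries 1 to 4, both membrane libraries and blood libraries 1 and 2 are bright over most rows, with 28 to 33 genes at 100 CPM or more, while exudate library 5 has 10 and the remaining blood and bone marrow libraries have 5 to 9.

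Ifit1, which binds viral RNA lacking the host cap modification, had 11780, 3354, 4365, 4405 and 0.0765 CPM in exudate, 11650 and 4818 CPM in membrane, 2085, 6512, 0, 13.5 and 0 CPM in blood and 0.516, 29.5 and 0 CPM in bone marrow. Ifit3, which works with the other IFIT proteins, had 5134, 1998, 1255, 1024 and 0 CPM in exudate, 4389 and 2440 in membrane, 750.9, 1574, 40.3, 0.138 and 0 in blood and 76.0, 0 and 0.972 in bone marrow. Both genes were high in all membrane libraries, in 4 of 5 exudate libraries and in blood libraries 1 and 2, so exudate and blood overlapped. Ifit2 had 0 read pairs in all 3 bone marrow libraries. It had 1542, 241.5, 153.6, 511.9 and 0 CPM in exudate, 1096 and 503.1 in membrane and 29.71, 785.4, 0.0596, 0 and 0 in blood. Against the floor of 3 read pairs over bone marrow, its mean was at least 8500-fold higher in exudate and at least 13900-fold higher in membrane. Such bounds cover counting error only and not the spread between libraries, so they do not bound the tissue difference. The blood mean, at least 2830-fold higher, came mostly from library 2. Blood and exudate each held a library at 0, so both overlapped bone marrow.

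Isg15, the ubiquitin-like modifier, had 608, 1215, 243, 246 and 0 CPM in exudate, 1796 and 193 CPM in membrane, 112, 163, 12.9, 0.552 and 0 CPM in blood and 1.72, 0 and 2.63 CPM in bone marrow. Rsad2 (viperin), which makes a chain-terminating nucleotide, had 9474, 5490, 10240, 9076 and 74.2 CPM in exudate, 7966 and 6448 in membrane, 3459, 5491, 17.0, 55.7 and 0.0482 in blood and 33.6, 3.18 and 0.0572 in bone marrow. Every exudate and membrane library exceeded every bone marrow library for Rsad2, whereas blood and bone marrow overlapped. Oasl2, a relative of the oligoadenylate synthetases, had 1238, 1262, 1257, 1122 and 450 CPM in exudate, 2050 and 1013 in membrane, 776, 1212, 201, 77.2 and 37.9 in blood and 4.47, 45.7 and 40.6 in bone marrow. Its lowest exudate library was above blood libraries 3 to 5 and all of bone marrow.

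Ifitm1 and Ifitm3, membrane proteins that hinder virus fusion, followed a flatter pattern. Ifitm3 had 4116, 10960, 14260, 10830 and 4051 CPM in exudate, 8601 and 9586 in membrane, 7088, 9982, 2791, 2835 and 1452 in blood and 1202, 2212 and 2208 in bone marrow. Ifitm1 had 1334, 2971, 2525, 2306 and 2305 CPM in exudate, 1523 and 1855 in membrane, 2030, 3183, 1085, 2747 and 268 in blood and 192, 495 and 251 in bone marrow. For Ifitm1 the fifth exudate library lay within the range of the other four. Per kb of exon, Ifitm3 had the highest mean level of the 39 genes in all 4 tissues, at 13040 CPM per kb in exudate, 13410 in membrane, 7123 in blood and 2764 in bone marrow. Mx1, Ifi44 and Phf11d were too low to be tested in any tissue.

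edgeR's quasi-likelihood test, fitted to all 15 libraries and 12330 genes, called none of the 36 genes tested in any of 6 tissue comparisons at an adjusted p under 0.05. On data simulated for exudate against bone marrow, the test called 0 of 61 genes given a log2 change of 3. A count of 0 therefore cannot show that levels were alike. The share of all genes called was 0% for exudate against blood, 0.178% for exudate against bone marrow, 0% for membrane against blood, 0.0162% for membrane against bone marrow, 0.0162% for blood against bone marrow and 0% for exudate against membrane. The common coefficient of biological variation was 1.86, and at an unadjusted p under 0.05 the counts in the same order were 2, 30, 4, 29, 18 and 0 of 36, beside 19.1%, 23.1%, 7.81%, 13.3%, 11.7% and 8.22% of all genes. DESeq2 called 0, 22, 0, 19, 5 and 0 of them, all higher in the first-named tissue, beside 9.79%, 13.8%, 10.4%, 13.8%, 2.61% and 7.42% of all genes. Total-count scaling moved the median of all genes to -0.95, -0.46, -2.15, -1.22, 0.32 and 0.67 and called none of the 36 either. Median fitted log2 fold changes of the 36 genes in the same order were 1.62, 4.46, 1.89, 5.03, 2.83 and -0.49, beside medians over all genes tested of -0.35, 0.14, -1.74, -0.75, 0.38 and 0.86. In membrane against bone marrow, 34 of 36 genes had both membrane libraries above all 3 bone marrow libraries, as had 12.9% of all genes tested. Without the fifth exudate library, edgeR called 10 of the genes in exudate against bone marrow (1.61% of all genes). With the library-name tag of 100 or 300 as a term it called 11 there (1.52% of all genes) and 2 in membrane against bone marrow (0.251%). All 3 bone marrow libraries carried the tag 100 and both membrane libraries the tag 300. Tag and tissue therefore cannot be told apart in membrane against bone marrow, where the tag term rested on exudate and blood libraries.

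By fitted values, exudate against bone marrow was widest for Rsad2 (log2 fold change 9.13, SE 2.582, edgeR adjusted p 0.0998), Ifit1 (8.90, SE 3.357, adjusted p 0.151) and Isg15 (8.30, SE 2.709, adjusted p 0.117) among the 7 genes followed in full. Oasl2 stood at 5.14 (SE 1.179, edgeR adjusted p 0.061), Ifitm1 at 2.87 (SE 0.711, adjusted p 0.0854) and Ifitm3 at 2.24 (SE 0.602, adjusted p 0.0917). The same genes had standard errors of 0.476 to 1.908 in exudate against blood, where Isg15 stood at 3.00 (edgeR adjusted p 0.333) and Ifit1 at 1.47 (adjusted p 0.722). A list of 20 NF-kB-driven inflammatory genes gave 1 call, higher in exudate than in bone marrow, and medians of 4.65 there and 1.84 in exudate against blood. Of 42 other genes of the interferon pathway, 31 were tested and none was called by edgeR in any tissue comparison.

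Sites more open in air pouch neutrophils than in blood or bone marrow neutrophils lay near most of the 39 genes. The authors' merged set had 47164 accessible sites, and 241 of them lay within 50 kb of a start of the listed genes. In the authors' deposited lists, sites more open in exudate than in blood numbered 65 of the 241 (27.0%), beside 6.01% of all merged sites, and 3 were less open (1.24%, beside 2.3%). Exudate against bone marrow had 77 more open (beside 9.93% of all) and 4 less open (1.66%, beside 4.72%). Membrane against blood had 42 more open (17.4%, beside 4.72%) and 4 less open (1.66%, beside 1.92%), and membrane against bone marrow had 59 more open (24.5%, beside 8.6%) and 6 less open (2.49%, beside 4.55%). Blood against bone marrow had 4 more open (1.66%, beside 1.19%) and none less open (beside 0.812%). The deposited lists hold no value per library, so these counts carry no replicate error. Their -log10 p is taken here as adjusted, since its lowest value lies just above that of 0.05.

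**Figure D2:**
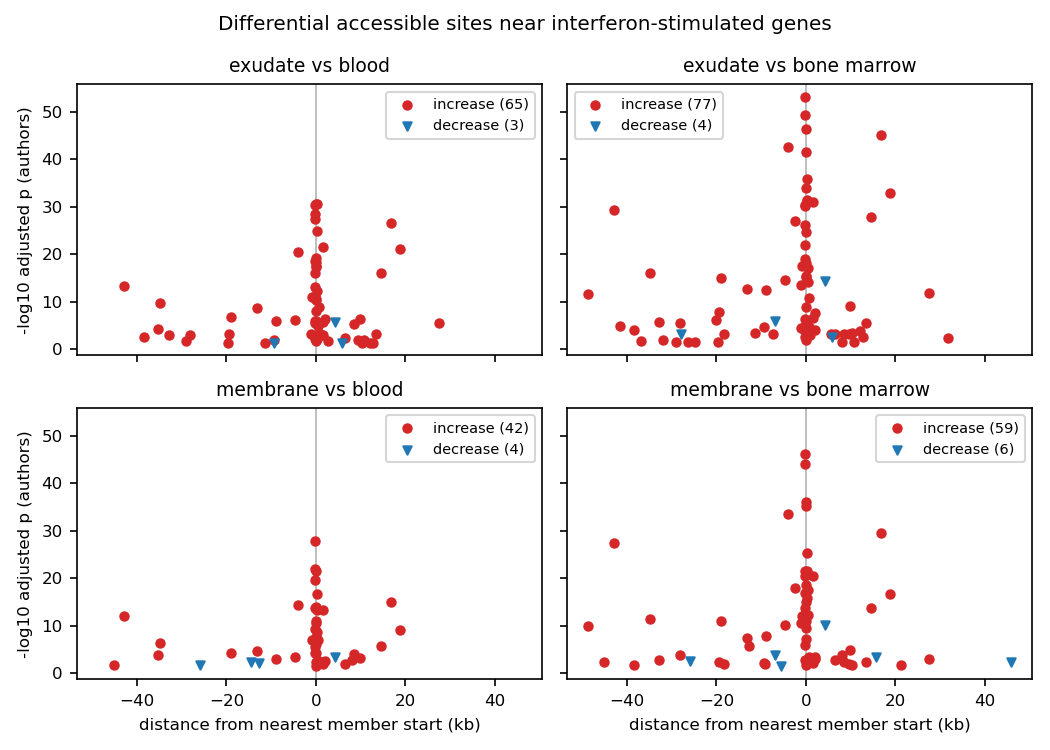
Sites in the authors' deposited lists within 50 kb of a listed gene's start, by distance from the nearest such start (x axis, kb) and the authors' -log10 adjusted p (y axis), in 4 comparisons. Red circles are more open and blue triangles less open in the first-named tissue; the tallest circle in exudate against bone marrow, at 53.2, stands at the Oasl1 start, and 65, 77, 42 and 59 sites were more open.

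Counted by gene, 32 of 39 had a site more open in exudate than in blood, as had 20.5% of the genes tested for RNA, and 32 had one against bone marrow (28.2% of genes). Membrane had such a site at 25 against blood (17.3% of genes) and at 27 against bone marrow (25.2% of genes). Clustered genes share sites, among them the Ifit genes on chromosome 19, the Oas genes on chromosome 5, and Rsad2 with Cmpk2 on chromosome 12. Mx1, Rtp4, Ifi44, Ifi35, Phf11d, Lgals3bp and Nmi had no listed site in any comparison. Within 1 kb of a start, 28 genes had a more open site in exudate against blood (2.34% of the genes tested for RNA) and 28 against bone marrow (2.93%), 22 had one in membrane against blood (1.95%) and 23 in membrane against bone marrow (2.58%). No less open site lay within 1 kb of a listed gene's start.

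Most of the largest -log10 adjusted p values in the authors' deposited lists stood at gene starts. The Oasl1 start (chr5:114922757-114923583) had 28.6 in exudate against blood and 53.2 against bone marrow in those deposited lists. The Ifit3b start (chr19:34607178-34608196), which covers the printed Ifit3b stretch, had 30.4 and 49.4 in the authors' deposited lists, and the Ifit1 start (chr19:34640590-34641095), which covers the Ifit1 stretch, had 30.6 and 46.4. The site over the Isg15 stretch (chr4:156200550-156201054) had 18.5 and 34.0 in the same deposited lists by the authors. Rsad2 had a site over its stretch (chr12:26456224-26456778) with 17.5 and 41.6, and a second one 16.7 kb away (chr12:26439270-26440297) with 26.6 and 45.1. The Herc6 start had 30.7 and 35.9, and Usp18, whose product removes ISG15 from proteins, had 27.5 and 30.2 at chr6:121245564-121246133.

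Less open sites near these genes lay at the Ifitm locus on chromosome 7 in 2 of 3 cases in exudate against blood, all 4 against bone marrow, 2 of 4 in membrane against blood and 3 of 6 against bone marrow. There, a site 4.2 kb from the Ifitm3 start (chr7:141006348-141006882) was listed by the authors as less open, with a deposited -log10 adjusted p of 5.82 in exudate against blood and 14.5 against bone marrow. Blood against bone marrow had its 4 more open sites near Isg15, Rsad2 and Trim30a, with deposited values by the authors of 8.1 at Isg15 (chr4:156202911-156203445), 4.03 and 2.98 at Rsad2, and 3.6 at Trim30a. These 4 are the only listed changes between blood and bone marrow around the 39 genes.

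The authors' sites were also laid over the promoter windows. In exudate against blood, a more open site covered part of the window of 19 of the 30 genes, which were 12 of the 13 with an ISRE core and 7 of the 17 without one. Over all genes with a window, such a site covered 5.47% of those with the core and 0.686% of those without it. Against bone marrow the counts were 12 of 13 and 8 of 17, beside 5.84% and 0.902% of all genes. Membrane gave 11 of 13 and 5 of 17 against blood (4.45% and 0.57% of all genes), and 10 of 13 and 7 of 17 against bone marrow (5.19% and 0.782%). The difference between windows with and without the core was not tested. Ifitm3 was the gene with a core and no such site in exudate. Oasl1, Oasl2, Herc6, Cmpk2, Xaf1, Dtx3l and Sp100 had a more open promoter site in exudate against blood without that core in the window.

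In ER-Hoxb8 cells the 39 genes were measured with far less spread, with a coefficient of biological variation of 0.019 to 0.0278. With such small errors a large share of all genes passed the test in each comparison, and each count below is set beside that share. Medians over all genes tested lay between -0.12 and 0.11 with TMM scaling. Scaling by total counts alone moved that median to between -1.02 and -0.69 in zymosan against DMSO, to between -0.67 and -0.41 in CEBPB-/- and JUNB-/- against wild type, and to 0.375 in RUNX1-/- against wild type. Splits that moved by over 10 percentage points under that scaling are given beside the main ones. Values of set 1, set 2 and the later table were scaled separately, so WT set 2 DMSO libraries have different CPM in the set 2 and RUNX1-/- and KLF6-/- comparisons.

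**Figure D3:**
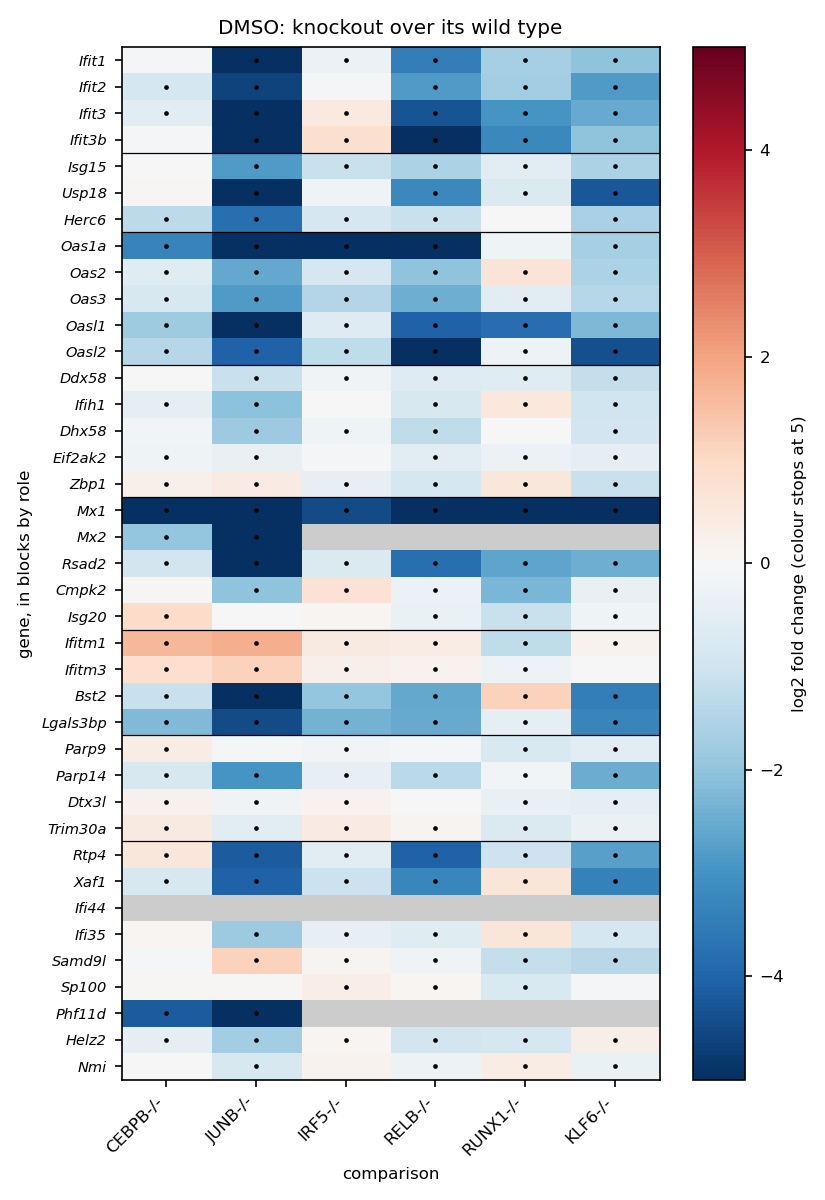
log2 fold change of each knockout over its wild type with DMSO (columns), for the 39 genes in blocks by role (rows); blue is lower and red higher in the knockout, dots mark an edgeR adjusted p under 0.05, and grey cells were not tested. The JUNB-/-, RELB-/- and KLF6-/- columns are blue over most rows, with 31, 30 and 32 genes lower, and Ifitm1 is red in all lines but RUNX1-/-.

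JUNB-/- cells had the largest median fall relative to their own wild type. WT set 1 and WT set 2 differed in level, with Ifit1 at 7.45 and 8.49 CPM in WT set 2 with DMSO. Falls of lines set against different wild types are therefore not on the same scale. With DMSO, 31 of 38 genes tested fell and 4 rose relative to WT set 1, with 41.1% of all genes lower and 35.4% higher, and the median log2 fold change was -2.84 (all genes -0.12). All 4 Ifit genes, all 3 genes of the ISG15 system and all 5 OAS genes fell, with medians of -7.16, -3.75 and -4.06. Ifit1 had 0.940 and 0.927 CPM in JUNB-/- against 73.6 and 76.3 CPM in WT set 1. Ifit3 had 0 and 0.148 CPM in JUNB-/- against 30.3 and 31.8 in WT set 1 (log2 fold change -8.69, SE 0.216, edgeR adjusted p 1.95e-40), and Ifit3b had 0.0672 and 0 against 10.3 and 10.3 (-8.01, SE 0.317, adjusted p 1.75e-30). Ifit3b rested on 2 and 0 read pairs in JUNB-/-, under the floor of 3 read pairs, so the size of its fold change is uncertain. Mx1, an antiviral GTPase, had 0 read pairs in both JUNB-/- DMSO libraries against 3.79 and 4.04 CPM in WT set 1, so it was at least 74-fold lower. Mx2 and Phf11d were also at 0 there, at least 22.6-fold and at least 13.1-fold lower.

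A few genes went the other way in JUNB-/- cells. Ifitm1 had 5141 and 4719 CPM in JUNB-/- against 1448 and 1377 CPM in WT set 1 (log2 fold change 1.80, SE 0.034, edgeR adjusted p 3.05e-46). Ifitm3, Samd9l and Zbp1, which senses Z-form nucleic acid, rose as well, and Samd9l had 1015 and 1011 CPM in JUNB-/- against 464 and 458 in WT set 1. Sp100, Isg20 and Parp9 did not pass the test. Among 37 tested genes of the interferon pathway, 20 fell and 13 rose; Irf7, the factor that amplifies type I interferon, had 16.7 and 18.3 CPM in JUNB-/- against 76.8 and 80.7 in WT set 1 (-2.17, SE 0.059, edgeR adjusted p 1.16e-38), and Irf9 had 40.59 and 39.95 against 88.6 and 93.3. Summed markers moved with this comparison: dendritic cell markers were 2.67 to 2.89 CPM in JUNB-/- and 107.7 to 109.4 in WT set 1, with Siglech and Xcr1 at 0 in both groups, and neutrophil markers were 73760 to 80700 in JUNB-/- and 25940 to 27580 in WT set 1. Their part in the result was not tested.

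RELB-/- cells carry the label of Relb, the gene of a subunit of the alternative NF-kB pathway, and had a smaller median difference from their wild type than JUNB-/- cells. With DMSO, the median level of the 39 genes was 4.93 and 4.65 CPM in RELB-/- against 14.08 and 14.22 in WT set 2. In the separately scaled set 1 it was 8.73 and 8.94 CPM in JUNB-/- against 47.42 and 48.28 in WT set 1. With DMSO, 30 of 36 genes fell and 4 rose relative to WT set 2 (27.3% of all genes lower, 32.1% higher), with a median of -1.31 (all genes 0.04). All 4 Ifit genes, 3 ISG15 system genes, 5 OAS genes and 5 nucleic acid sensors fell. Oasl2 had 0.0948 and 0.158 CPM in RELB-/- against 6.30 and 5.76 CPM in WT set 2 (log2 fold change -5.55, SE 0.29, edgeR adjusted p 1.08e-28). Rtp4, which restrains amplification of interferon responses, had 1.40 and 1.76 against 26.0 and 26.2 (-4.05, SE 0.105, adjusted p 3.98e-48), and Rsad2 had 1.11 and 1.42 against 17.2 and 17.6 (-3.79, SE 0.128, adjusted p 1.6e-40). Oas1a was at 0 in both RELB-/- DMSO libraries, at least 21.6-fold lower, and Mx1 was at least 10.6-fold lower.

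Ifitm1 had 3641 and 3619 CPM in RELB-/- DMSO libraries against 2867 and 2733 CPM in WT set 2 (log2 fold change 0.37, SE 0.018, edgeR adjusted p 1.8e-30), and Ifitm3, Sp100 and Trim30a rose with it. Of 35 tested pathway genes, 20 fell and 11 rose. Irf7 had 10.0 and 9.72 CPM in RELB-/- against 31.2 and 30.1 in WT set 2, and Irf9 had 21.2 and 21.9 against 52.0 and 52.4. Dendritic cell markers summed to 24.0 to 24.3 CPM in RELB-/- and 92.2 to 94.8 in WT set 2; their part was not tested.

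Klf6 encodes a zinc-finger factor, and its RNA was higher in the libraries labelled KLF6-/- than in WT set 2. In these libraries 32 of 36 genes fell and 2 rose relative to WT set 2 (35% of all genes lower, 31.2% higher), with a median of -1.50 (all genes -0.04). These DMSO libraries of WT set 2 are shared by the RELB-/-, IRF5-/-, RUNX1-/- and KLF6-/- comparisons, so values stand side by side and their likeness was not scored. Oasl2 had 0.330 and 0.505 CPM in KLF6-/- against 9.34 and 8.52 CPM in WT set 2 (log2 fold change -4.41, SE 0.242, edgeR adjusted p 1.09e-17). Usp18 had 0.372 and 0.168 against 5.54 and 4.84 (-4.24, SE 0.304, adjusted p 1.8e-14), and Bst2, the tether that holds budding virus on the cell, had 1.24 and 0.841 against 11.47 and 11.69 (-3.47, SE 0.165, adjusted p 1.87e-19). Helz2, a helicase coactivator, had 105 and 108 CPM in KLF6-/- against 87.9 and 85.3 (0.30, SE 0.038, edgeR adjusted p 1.16e-08), and Ifitm1 rose by 0.19. Of 35 pathway genes, 22 fell and 9 rose, Irf7 (-1.13), Irf9 (-1.10) and Stat2 (-0.80) among those that fell. Dendritic cell markers summed to 64.9 to 67.0 CPM in KLF6-/- and 136.8 to 140.3 in WT set 2, and their part was not tested. Of these markers, Cd74 had a mean of 21.92 CPM in KLF6-/- against 95.97 in WT set 2, and Itgax 43.82 against 42.21.

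The libraries labelled RUNX1-/-, in which Runx1 RNA was higher than in WT set 2, had a mixed pattern. Relative to WT set 2, 26 of 36 genes fell and 7 rose (37.1% of all genes lower, 38.2% higher), with a median of -0.58 (all genes 0.01); by total counts the split was 20 lower and 11 higher. Rsad2 had 4.16 and 4.12 CPM in RUNX1-/- against 25.6 and 26.0 CPM in WT set 2 (log2 fold change -2.64, SE 0.1, edgeR adjusted p 1.2e-22). Its neighbour Cmpk2, a mitochondrial nucleotide kinase, had 4.65 and 4.31 against 21.3 and 22.2 (-2.28, SE 0.096, adjusted p 3.44e-21), and Ifit2 had 1.26 and 1.31 against 4.26 and 4.21 (-1.72, SE 0.206, adjusted p 3.38e-09). All 4 Ifit genes fell. Bst2 had 24.7 and 26.1 CPM in RUNX1-/- against 11.47 and 11.69 (1.13, SE 0.082, edgeR adjusted p 1.63e-14), and Oas2, Ifih1, Zbp1, Xaf1, Ifi35 and Nmi rose with it.

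Unlike the other lines, RUNX1-/- cells had less Ifitm1, with 1753 and 1720 CPM against 4254 and 4045 CPM in WT set 2 (log2 fold change -1.26, SE 0.022, edgeR adjusted p 1.72e-32). Of 35 pathway genes, 22 fell and 8 rose. Neutrophil markers summed to 19360 to 19660 CPM in RUNX1-/- and 70130 to 73420 in WT set 2, and dendritic cell markers to 504 to 510 in RUNX1-/- and 136.8 to 140.3 in WT set 2, with Siglech at 0 in RUNX1-/-. Their part in these values was not tested.

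IRF5-/- and CEBPB-/- lines had smaller median differences from their wild types. In IRF5-/- cells with DMSO, 20 of 36 genes fell and 10 rose relative to WT set 2 (29.6% of all genes lower, 35% higher; 21 and 6 by total counts), with a median of -0.21 (all genes 0.04). All 5 OAS genes fell. Bst2 had 2.12 and 1.98 CPM in IRF5-/- against 7.73 and 7.90 CPM in WT set 2 (log2 fold change -1.93, SE 0.147, edgeR adjusted p 6.58e-20), Oas3 had 9.77 and 9.45 against 26.5 and 26.2 (-1.45, SE 0.077, adjusted p 1.94e-28), and Oasl2 had 2.63 and 2.38 against 6.30 and 5.76 (-1.26, SE 0.165, adjusted p 2.74e-10). Oas1a was at 0 in both IRF5-/- DMSO libraries, at least 19.6-fold lower. Ifit3b, by contrast, had 1.61 and 1.66 CPM in IRF5-/- against 0.836 and 1.01 (0.82, SE 0.301, edgeR adjusted p 0.0141), and Ifitm1 had 3890 and 3785 against 2867 and 2733 (0.46, SE 0.018, adjusted p 1.06e-35). Of 35 pathway genes, 20 fell and 10 rose in IRF5-/- cells. Dendritic cell markers summed to 40.8 to 42.3 CPM in IRF5-/- and 92.2 to 94.8 in WT set 2, and monocyte and macrophage markers to 757 to 763 in IRF5-/- and 1133 to 1137 in WT set 2; their part was not tested.

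In the libraries labelled CEBPB-/-, whose Cebpb RNA was no lower than in WT set 1, with DMSO 19 of 38 genes fell and 8 rose relative to WT set 1 (36.9% of all genes lower, 33.6% higher; 31 and 5 by total counts), with a median of -0.19 (all genes -0.05). All 5 OAS genes again fell. Mx1 had 0 and 0.0684 CPM in CEBPB-/- against 3.79 and 4.04 CPM in WT set 1 (log2 fold change -6.66, SE 0.435, edgeR adjusted p 3.68e-20). That fold change rested on 0 and 2 read pairs in CEBPB-/-, under the floor of 3 read pairs, and its size is uncertain. Oas1a had 0.505 and 0.513 against 5.72 and 4.78 (-3.36, SE 0.236, adjusted p 5.34e-19), and Lgals3bp, a secreted glycoprotein, had 2.70 and 3.18 against 13.5 and 13.99 (-2.22, SE 0.119, adjusted p 5.03e-24). Ifitm1 had 4584 and 4391 CPM in CEBPB-/- against 1448 and 1377 (1.67, SE 0.034, edgeR adjusted p 5.16e-44). Isg15, at 61.7 and 62.2 CPM in CEBPB-/- and 61.9 and 63.6 in WT set 1, did not pass the test. Of 37 pathway genes, 17 rose and 9 fell. Dendritic cell markers summed to 73.7 to 74.2 CPM in CEBPB-/- and 107.7 to 109.4 in WT set 1; their part was not tested.

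**Figure D4:**
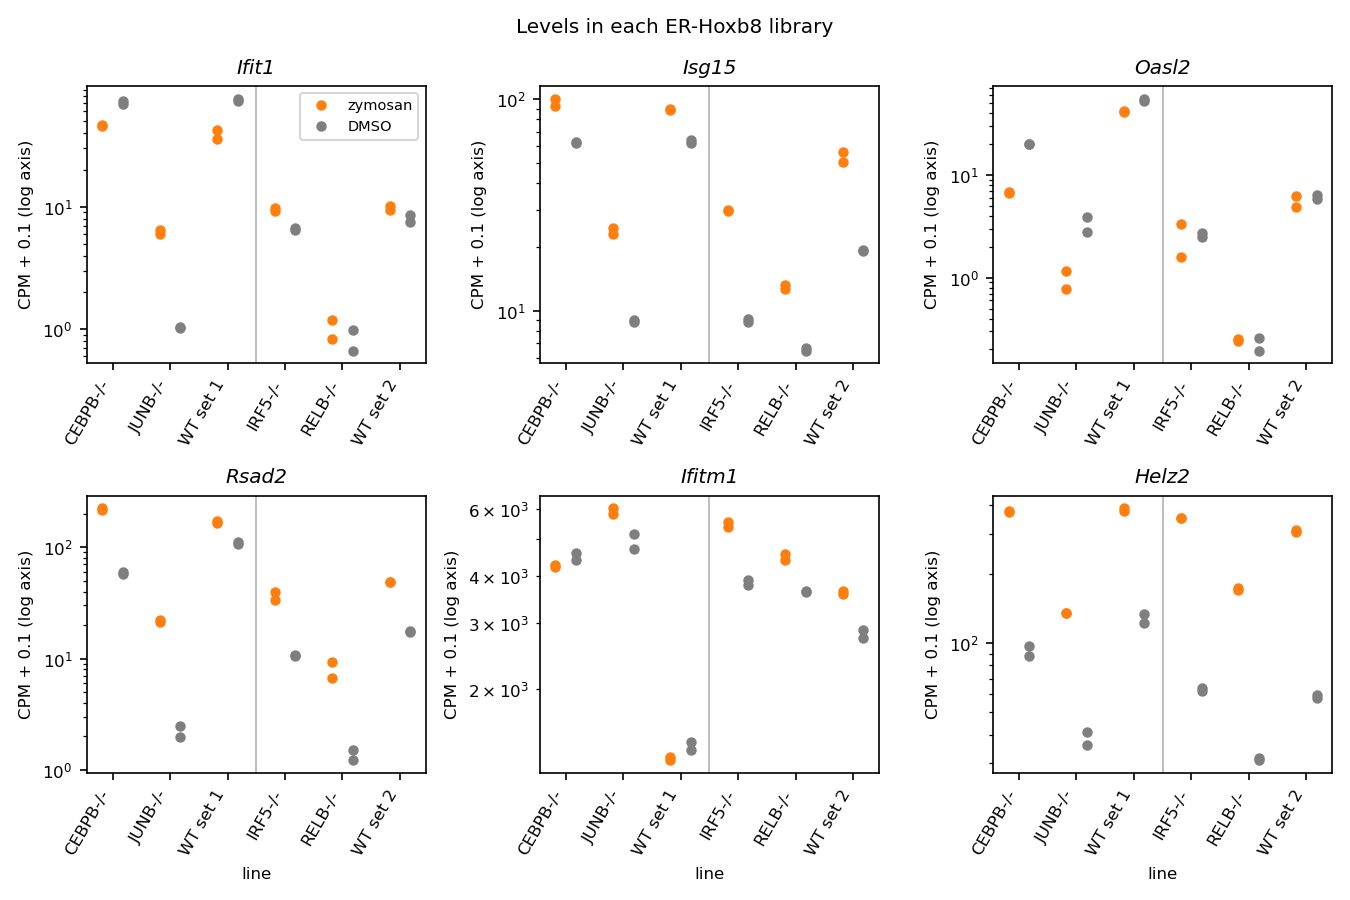
CPM + 0.1 on a log axis for 6 of the genes in each ER-Hoxb8 library, by line, with zymosan (orange, left) and DMSO (grey, right); each point is 1 library. Ifit1 lies near 1 CPM in JUNB-/- and RELB-/- DMSO libraries against 73.6 to 76.3 CPM in WT set 1 and 7.45 to 8.49 in WT set 2, while Ifitm1 exceeds 1000 CPM in all libraries shown.

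For the 20 inflammatory genes, DMSO comparisons gave 15 lower in CEBPB-/-, 20 in JUNB-/-, 20 in IRF5-/-, 19 lower and 1 higher in RELB-/-, 18 lower and 2 higher in RUNX1-/- and 15 lower and 3 higher in KLF6-/-, each against its wild type. Their medians were -1.27, -2.03, -1.79, -1.65, -1.66 and -0.50 in the same order. The shares of all genes lower and higher are those given above for each comparison.

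The 2 wild types themselves stood at different levels in their separately scaled tables. With DMSO, Ifit1 had 73.6 and 76.3 CPM in WT set 1 and 7.45 and 8.49 CPM in WT set 2, and Oas3 had 104 and 110 CPM in WT set 1 and 26.5 and 26.2 CPM in WT set 2. No test was run across the tables. Per kb of exon, Ifitm1 had the highest mean level of the 39 genes in every ER-Hoxb8 group, at 1291 CPM per kb in WT set 1 DMSO and 2560 in WT set 2 DMSO, followed by Ifitm3 at 422 and 330.1.

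With zymosan present in both arms, JUNB-/- had 31 of 38 genes lower and 6 higher than WT set 1 (37.4% of all genes lower, 39.1% higher), with a median of -2.93. Oas1a, which makes oligoadenylates that activate RNase L, had 0 and 0.0451 CPM in JUNB-/- zymosan libraries against 8.19 and 9.90 CPM in WT set 1 (log2 fold change -8.28, SE 0.428, edgeR adjusted p 4.17e-25). Mx1 had 0.0534 and 0 against 5.99 and 7.05 (-7.81, SE 0.475, adjusted p 9.84e-22), and Oasl2 had 1.07 and 0.676 against 41.1 and 41.3 (-5.58, SE 0.143, adjusted p 9.12e-40). Oas1a had 0 and 1 read pairs in these JUNB-/- libraries and Mx1 had 1 and 0. Both lie under the floor of 3 read pairs, so the size of these 2 fold changes is uncertain. Ifitm1 had 5831 and 6028 CPM in JUNB-/- against 1322 and 1293 (2.18, SE 0.035, edgeR adjusted p 6.6e-50).

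RELB-/- cells with zymosan had 33 of 36 genes lower and 2 higher than WT set 2 (28.9% of all genes lower, 27.1% higher), with a median of -2.11. Oasl2 had 0.156 and 0.143 CPM in RELB-/- against 4.78 and 6.17 CPM in WT set 2 (log2 fold change -5.16, SE 0.358, edgeR adjusted p 1.01e-21). Ifit1 had 0.739 and 1.10 against 10.1 and 9.39 (-3.42, SE 0.2, adjusted p 8.63e-26), and Usp18 had 0.233 and 0.573 against 3.81 and 4.17 (-3.36, SE 0.302, adjusted p 2.86e-16). Ifitm1 and Ifitm3 were the 2 genes that were higher, Ifitm1 by 0.31 (SE 0.018, adjusted p 1.59e-25). Oas1a was at 0 in both RELB-/- zymosan libraries, at least 23.6-fold lower than in WT set 2.

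IRF5-/- cells with zymosan had 17 of 36 genes lower and 7 higher than WT set 2 (30.8% of all genes lower, 29.6% higher; 22 and 5 by total counts), with a median of -0.17. Bst2 (4.17 and 2.76 CPM in IRF5-/- against 12.9 and 12.97 in WT set 2), Oas3 (13.7 and 13.5 against 33.7 and 36.4) and Oasl2 (1.48 and 3.19 against 4.78 and 6.17) again had the largest drops among genes of at least 1 in mean log2 CPM, with log2 fold changes of -1.88, -1.37 and -1.27. No Ifit gene passed the test in IRF5-/- cells with zymosan. CEBPB-/- cells with zymosan had 18 of 38 genes lower and 16 higher than WT set 1 (32.9% of all genes lower, 35% higher; 29 and 6 by total counts), with a median of -0.14. Mx1 (-5.15, SE 0.384), Oas1a (-4.06, SE 0.28) and Lgals3bp (-3.37, SE 0.147) were lower and Ifitm1 (1.70, SE 0.034) higher, with edgeR adjusted p from 6.06e-44 to 8.12e-18. Rsad2 was also higher, with 223 and 216 CPM in CEBPB-/- against 165 and 170 CPM in WT set 1.

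**Figure D5:**
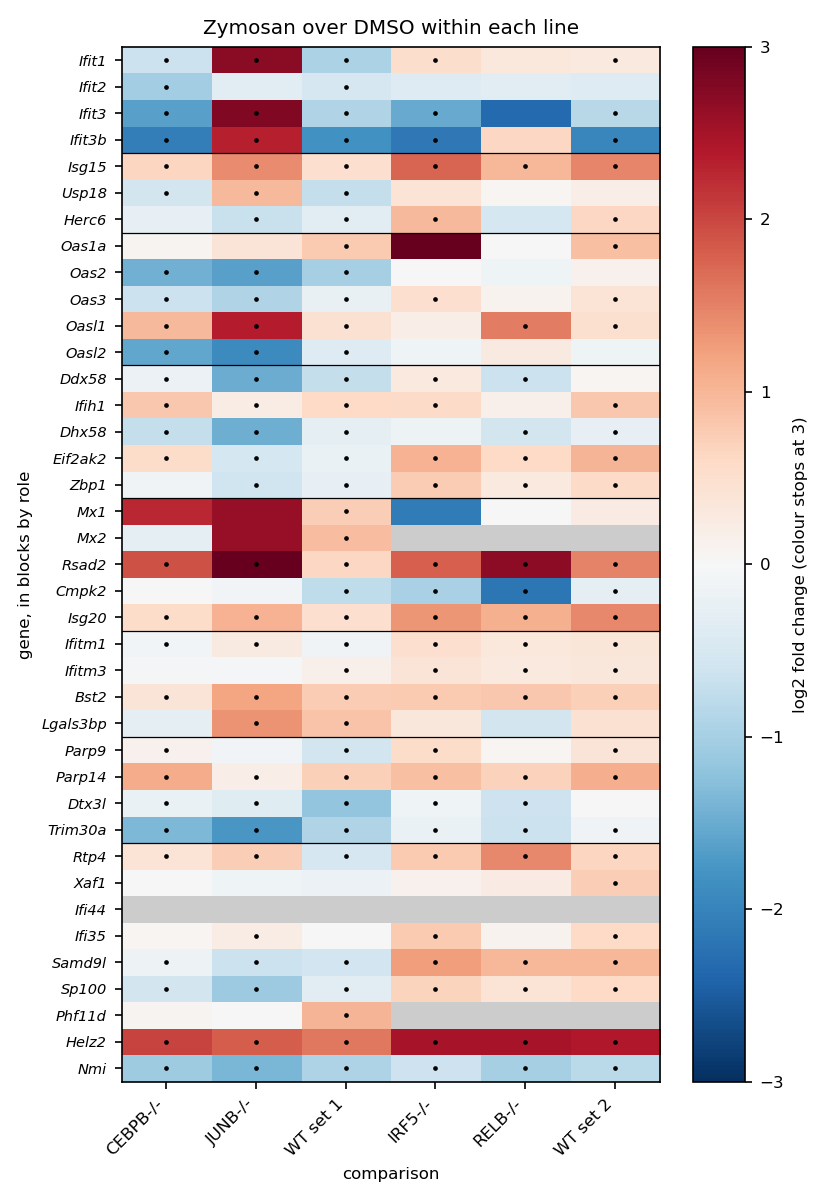
log2 fold change of zymosan over DMSO within each of 6 lines (columns) for the 39 genes in blocks by role (rows), red where higher with zymosan, with dots at an edgeR adjusted p under 0.05 and grey cells not tested. Helz2 is red in every column, from 1.57 to 2.48, and Ifit3b is blue in the CEBPB-/-, WT set 1, IRF5-/- and WT set 2 columns and red in JUNB-/-.

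Zymosan for 2 h split the list in both wild types. In WT set 1, 14 of 38 genes rose and 22 fell with zymosan (35.7% and 39.9% of all genes; 1 and 29 by total counts), with a median of -0.23. In WT set 2, 22 of 36 rose and 6 fell (36.3% and 32.1% of all genes; 7 and 21 by total counts), with a median of 0.44. Helz2 had 376 and 386 CPM with zymosan against 123 and 133 CPM with DMSO in WT set 1 (log2 fold change 1.57, SE 0.042, edgeR adjusted p 2.68e-39) and 312 and 304 against 59.2 and 57.6 in WT set 2 (2.40, SE 0.03, adjusted p 1.38e-70). Ifit3b had 3.34 and 2.59 with zymosan against 10.3 and 10.3 in WT set 1 (-1.81, SE 0.14, adjusted p 1.47e-17), and 0.244 and 0.227 against 0.836 and 1.01 in WT set 2 (-1.96, SE 0.491, adjusted p 0.000296). Rsad2 rose to 48.8 and 48.8 CPM with zymosan, against 17.2 and 17.6 with DMSO, in WT set 2 (1.49, SE 0.072, adjusted p 4.78e-31), and Isg15 to 50.0 and 55.7, against 19.2 and 19.1 (1.47, SE 0.064, adjusted p 9.74e-34). In WT set 1, Dtx3l, the partner of Parp9 in ubiquitin and ADP-ribose signalling, had 48.4 and 50.7 CPM with zymosan against 113 and 112 with DMSO (-1.18, SE 0.046, adjusted p 6.14e-31).

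Summed dendritic cell markers moved with zymosan. They were 549 to 551.7 CPM with zymosan and 73.7 to 74.2 with DMSO in CEBPB-/-, 148.6 to 156.3 and 2.67 to 2.89 in JUNB-/-, and 255.8 to 256.8 and 107.7 to 109.4 in WT set 1. In set 2 they were 415.1 to 424.6 CPM with zymosan and 40.8 to 42.3 with DMSO in IRF5-/-, 146.1 to 147.4 and 24.0 to 24.3 in RELB-/-, and 301.4 to 303.5 and 92.2 to 94.8 in WT set 2. Most of each sum with zymosan was Cd74, at 510.4 and 512.1 CPM in CEBPB-/-, 407.7 and 397.6 in IRF5-/- and 270.6 and 271.1 in WT set 2. Itgax had 16.59 and 16.92 CPM with zymosan against 20.96 and 22.68 with DMSO in IRF5-/-. In CEBPB-/- it had 40.3 and 35.05 against 16 and 14.54. Flt3, Xcr1 and H2-Ab1 reached at most 1.093 CPM in any library with zymosan. Siglech was at 0 in all libraries with zymosan. The part of these markers in the zymosan results was not tested.

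All 20 inflammatory genes rose with zymosan in all 6 lines, with medians of 6.06 in CEBPB-/-, 5.76 in JUNB-/-, 3.66 in WT set 1, 4.95 in IRF5-/-, 4.44 in RELB-/- and 2.98 in WT set 2. Ifnb1, the gene of interferon beta, had 12.5 and 14.5 CPM with zymosan and 0 and 0 with DMSO in CEBPB-/-, and 4.89 and 4.75 with zymosan and 0.0235 and 0.0514 with DMSO in WT set 1. In JUNB-/- it had 1.23 and 1.31 with zymosan and 0 and 0 with DMSO, and in IRF5-/- 3.01 and 1.90 with zymosan and 0.0566 and 0.214 with DMSO. In WT set 2 it had 0.390 and 0.454 with zymosan and 0.0784 and 0.0470 with DMSO, and in RELB-/- 0 and 0.0956 with zymosan and 0 and 0 with DMSO, where the change did not pass the test (edgeR adjusted p 0.111). Pathway genes that rose and fell with zymosan numbered 26 and 8 in CEBPB-/- (35.1% and 38.4% of all genes) and 23 and 10 in JUNB-/- (36.5% and 36.7%). In WT set 1 they numbered 18 and 15 (35.7% and 39.9%). In set 2 they numbered 22 and 7 in IRF5-/- (34.3% and 35.4%), 23 and 7 in RELB-/- (35.2% and 37.5%) and 24 and 8 in WT set 2 (36.3% and 32.1%). The numbers of pathway genes tested in each set were those given above. The pathway list was not recounted under total-count scaling.

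Within the knockouts, zymosan against DMSO gave 11 genes higher and 16 lower in CEBPB-/- (35.1% and 38.4% of all genes; 3 and 29 by total counts), with a median of -0.09. In JUNB-/- 16 rose and 13 fell (36.5% and 36.7%; 8 and 22 by total counts), with a median of 0.10. In IRF5-/- 20 rose and 6 fell (34.3% and 35.4%; 5 and 21 by total counts), with a median of 0.51, or 0.45 with a gene at 0 set to its bound. In RELB-/- 14 rose and 6 fell (35.2% and 37.5%; 5 and 21 by total counts), with a median of 0.20. Rsad2 had the largest rise in JUNB-/-, with 22.3 and 21.04 CPM with zymosan against 2.38 and 1.86 with DMSO (log2 fold change 3.34, SE 0.112, edgeR adjusted p 2.78e-34), and in RELB-/-, with 9.29 and 6.64 against 1.11 and 1.42 (2.68, SE 0.163, adjusted p 2.24e-25). In CEBPB-/- it rose by 1.91 and in IRF5-/- by 1.79. Helz2 rose by 2.02 in CEBPB-/-, 2.48 in IRF5-/- and 2.47 in RELB-/-.

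Several genes fell with zymosan inside the knockouts. Cmpk2 had 2.41 and 2.96 CPM with zymosan against 11.8 and 12.1 CPM with DMSO in RELB-/- (log2 fold change -2.16, SE 0.128, edgeR adjusted p 4.63e-26). Oasl2 had 1.07 and 0.676 against 2.65 and 3.82 in JUNB-/- (-1.90, SE 0.243, adjusted p 4.65e-10), and Ifit3b fell by 2.07 in CEBPB-/- and by 2.14 in IRF5-/-. In JUNB-/- cells 3 of the 4 Ifit genes rose with zymosan, Ifit3b among them, though from 2 and 0 read pairs with DMSO to only 4 and 4. Ifit1 had 5.88 and 6.35 CPM with zymosan against 0.940 and 0.927 with DMSO (2.71, SE 0.198, adjusted p 1.39e-18), and Ifit3 had 0.481 and 0.541 against 0 and 0.148 (2.78, SE 0.676, adjusted p 0.000229). Ifit2 had 0.961 and 1.397 CPM with zymosan against 1.511 and 1.521 with DMSO and did not pass the test (-0.34, SE 0.255, adjusted p 0.231). These zymosan levels stayed below those of WT set 1 without zymosan. Ifitm1 differed little, from -0.11 in WT set 1 and -0.08 in CEBPB-/- to 0.27 in JUNB-/-, 0.31 in RELB-/-, 0.37 in WT set 2 and 0.51 in IRF5-/-, and its direction flipped under total-count scaling in JUNB-/-, RELB-/-, WT set 2 and IRF5-/- and under DESeq2's size factors in WT set 1 and CEBPB-/-.

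The response to zymosan was also compared between each knockout and its wild type by an interaction term. In JUNB-/- against WT set 1, 14 of 38 genes responded higher and 13 lower (28.1% and 15.4% of all genes), led by Ifit3b (4.13, SE 0.984, edgeR adjusted p 0.000397), Ifit3 (3.68, SE 0.669, adjusted p 5.83e-06) and Ifit1 (3.65, SE 0.203, adjusted p 7.59e-23), which rose with zymosan in JUNB-/- and fell in WT set 1. In JUNB-/-, Ifit3b rested on 4 and 4 read pairs with zymosan against 2 and 0 with DMSO, and Ifit3 on 9 and 12 against 0 and 4. Both genes passed the expression filter through the lines where they were higher, so the size of their responses is uncertain. Oasl2 had the largest lower response (-1.52, SE 0.257, adjusted p 1.32e-06). In CEBPB-/- against WT set 1, 13 responded higher and 11 lower (24.4% and 16.7% of all genes; 10 and 13 by total counts), Rsad2 by 1.298 (SE 0.062, adjusted p 9.62e-26), Oasl2 by -1.19 (SE 0.135, adjusted p 4.66e-11) and Lgals3bp by -1.15 (SE 0.224, adjusted p 2.16e-05).

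In RELB-/- against WT set 2, 2 of 36 genes responded higher and 13 lower (16.1% and 15.3% of all genes), with Cmpk2 at -1.88 (SE 0.163, edgeR adjusted p 1.92e-16), Herc6, the ISG15 ligase in mice, at -1.14 (SE 0.355, adjusted p 0.00873) and Rsad2 at 1.19 (SE 0.187, adjusted p 1.88e-07). All 4 genes of the PARP and ubiquitin group were among the lower responses. In IRF5-/- against WT set 2, 5 responded higher and 2 lower (16.5% and 16.8% of all genes; 2 and 5 by total counts), among them Cmpk2 at -0.69 (SE 0.129, adjusted p 8.74e-06), Rsad2 at 0.31 (SE 0.113, adjusted p 0.0279), Isg15 at 0.27 (SE 0.107, adjusted p 0.0385) and Ifitm1 at 0.14. That count of 7 was 3 without IRF5-/- DMSO library 1 or WT set 2 DMSO library 2, and 11 without IRF5-/- zymosan library 1 or WT set 2 zymosan library 2.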

How the data were processed

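The members and gene lists were chosen with earlier results of these data known. The deposited RNA tables hold raw counts of read pairs per gene, made by the authors with featureCounts v1.5.0-p2 (tissues, unstranded) and v1.6.3 (ER-Hoxb8, reverse stranded), keeping pairs of mapping quality 255, per the file headers. STAR, Bowtie2, MACS2, deepTools and DESeq2 are named in the submitters' processing notes, with mm10 and GRCm38. In set 1, 18 columns matched no sample and were not used; 10 columns of the later table were not used.

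Symbols were matched for 50376 of 50600 identifiers (99.6%). edgeR 4.0.16 (R 4.3.3) used TMM scaling, filterByExpr (count minimum 10, total 15, share 0.7), a quasi-likelihood test per table and Benjamini-Hochberg adjustment over all genes tested (12330, 12899, 13779 and 13608), with DESeq2 1.42.0 as an alternative. The 36, 38, 36 and 36 genes of the list that passed the filter include some that passed through the group where they are high. The scripts were tested on simulated data with log2 changes of 1, 2 and 3. In exudate against bone marrow edgeR called 0 of 59, 0 of 67 and 0 of 61 changed genes. In JUNB-/- against WT set 1 with DMSO it called 51 of 62, 62 of 64 and 65 of 66, with 11 false calls. Levels are CPM with TMM factors. Genes named in full were, per comparison, the 3 called genes of largest change whose mean log2 CPM was at least 1, the largest of the opposite direction and the gene highest per length; in tissues, 7 genes. A count floor of 3 covers counting error only.

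ATAC lists give the authors' -log10 p per deposited site, taken as adjusted, from 2 libraries per tissue. The authors' deposited merged site list holds a score column and interval columns, of which only positions were used. Deposited gene symbols and other annotations by the authors served to name rows. Replicate numbers did not pair libraries: correlations of same-numbered deviations were -0.042 to 0.100 in 11 tissue pairs, -0.037 to 0.094 in 30 pairs of set 1, -0.028 to 0.041 in 30 of set 2 and -0.038 to 0.034 in 6 of the later table.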

Additional observations from a re-analysis of the deposited data

Results flagged for a closer look

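One library stood far from the rest of its group. In exudate, library 5 had 0 CPM of Isg15, 0.0765 CPM of Ifit1, 0 CPM of Ifit3, 74.2 CPM of Rsad2 and 450.0 CPM of Oasl2, each with a gap to the nearest library that exceeded Dixon's limit for 5 values on the scale of log2(CPM + 1). On the CPM scale itself Oasl2 alone exceeded it. These were 5 of 14 gene and tissue groups examined on the log2 scale. All 5 flags come from 1 library and are not independent. Their count therefore cannot be set against the rate of about 1 in 20 that chance alone flags. Ifitm1 (2305 CPM) and Ifitm3 (4051 CPM) of the same library did not stand apart in this way.

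Zymosan responses differed between a knockout and its wild type by the interaction term in 24 of 38 genes for CEBPB-/- (41% of all genes), 27 of 38 for JUNB-/- (43.6%), 7 of 36 for IRF5-/- (33.3%) and 15 of 36 for RELB-/- (31.4%). The differences on the log2 scale were 3.65 for Ifit1, 3.68 for Ifit3, 4.13 for Ifit3b, 0.38 for Ifitm1 and -1.52 for Oasl2 in JUNB-/-. Those of Ifit3 and Ifit3b rested on few read pairs in JUNB-/-. They were 1.3 for Rsad2, -1.19 for Oasl2 and -1.15 for Lgals3bp in CEBPB-/-. In RELB-/- they were -1.88 for Cmpk2, -1.14 for Herc6 and 1.19 for Rsad2, and in IRF5-/- -0.69 for Cmpk2, 0.31 for Rsad2, 0.27 for Isg15 and 0.14 for Ifitm1.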

How the results depend on the processing

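Tissue counts of called genes, 0 in each comparison, moved with the setting. In exudate against bone marrow they were 22 with DESeq2, 18 without the filter (0.733% of all genes) and 11 with a tag term; in membrane against bone marrow 19, 15 (0.386%) and 2, and 8 with only those groups fitted (1.66%); in blood against bone marrow 5 with DESeq2 and 8 without the filter (0.171%); in exudate against blood and membrane against blood 2 without the filter (0.22% and 0.0358%). Tag and tissue coincided in membrane against bone marrow, so the tag term there rested on exudate and blood libraries. Leaving out each library gave 0 to 10 in exudate against bone marrow, with 10 without exudate library 5, and 0 in the other 5. A block of tag and number gave 9, 22, 14, 24, 11 and 5 in the order of the report, the last 5 lower in exudate, beside 0.576%, 2.35%, 0.754%, 2.21%, 0.714% and 0.073% of all genes, but same-numbered libraries did not deviate together. In ER-Hoxb8 cells a replicate block moved no count by more than 1 (6 in place of 7 for the IRF5-/- response and 23 in place of 24 for IRF5-/- with zymosan).

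A 2-fold minimum beside the adjusted p left, with the share of all genes in brackets, 10 in CEBPB-/- DMSO (24.9%), 17 in CEBPB-/- zymosan (27.7%), 10 in CEBPB-/- zymosan against DMSO (43.8%), 3 in the CEBPB-/- response (11.2%), 8 in IRF5-/- DMSO (19.6%), 7 in IRF5-/- zymosan (20.5%), 8 in IRF5-/- zymosan against DMSO (36.3%), 0 in the IRF5-/- response (7.73%), 9 in the JUNB-/- response (12.6%), 17 in JUNB-/- zymosan against DMSO (39.7%), 20 in RELB-/- DMSO (15.2%), 6 in RELB-/- zymosan against DMSO (37.5%), 3 in the RELB-/- response (6.59%), 22 in KLF6-/- (20.4%), 13 in RUNX1-/- (27.4%), 4 in WT set 1 (36.6%) and 8 in WT set 2 (29.1%), of 38 genes in set 1 and 36 in the others. The IRF5-/- response count ranged from 3 to 11 with a library left out. Sites within 10 kb numbered 51 in exudate against bone marrow (81 at 50 kb) and 43 in membrane against bone marrow (65), and within 100 kb 7 in blood against bone marrow (4).

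Among the 129 named values, Ifitm1 was the gene whose direction reversed. Reversals were not scored outside these values, and the zymosan splits by total counts given earlier show that other genes changed direction too. With DESeq2 and with its size factors, Ifitm1 went to 0.02 in WT set 1 and CEBPB-/- zymosan against DMSO. Under total counts it went to -0.41 in JUNB-/-, -0.43 in IRF5-/-, -0.59 in RELB-/- and -0.51 in WT set 2. It also went to -0.20 in the CEBPB-/- response. That response ranged from -0.12 (without WT set 1 DMSO library 1) to 0.03 with a library left out. In the RELB-/- response it went to 0.08 without RELB-/- zymosan library 1, in a range from -0.09 to 0.08. The cause was not tested. The 129 named values were recomputed under each setting that applied; in 1447 of these repeats direction and side of the threshold were kept, in 69 the value passed the threshold newly and in 19 it no longer did.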
